A study of Rattus norvegicus with 9 samples.

Results

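Kidneys of rats given spironolactone on top of deoxycorticosterone acetate (DOCA) were compared with kidneys of DOCA-treated rats given vehicle. Open chromatin was read nucleus by nucleus with a transposase and barcodes (snATAC-Seq). All nuclei recorded under the treatments Spironolactone and DOCA were taken, 29570 of the 53298 nuclei in the series, in 4 of its 9 libraries. Each group had 1 library made with a single-cell ATAC kit (scATAC) and 1 made with a Multiome kit. DOCA was represented by 2471 and 9143 nuclei, and Spironolactone by 2721 and 15235, with the scATAC kit named first here and below.

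The rats of both groups were male Sprague-Dawley rats whose age field reads 6 weeks. In the study most rats were killed 6 weeks after DOCA began, and the sources used here do not say whether the field means that time. Each had lost 1 kidney, received weekly subcutaneous DOCA at 50 mg/kg and drank salt water. The DOCA group was gavaged daily with vehicle and the Spironolactone group received spironolactone at 50 mg/kg per day. The 2 groups thus shared the surgery, the hormone and the salt, and differed in the drug. Control rats, quoted for scale, had sham surgery, with neither the hormone nor the salt. Nuclei came from whole kidney, so every nephron segment and the interstitium could be present. Within each group the codes of both libraries begin alike, and the sources used here do not say whether both were made from the same kidney. All p-values below therefore measure the spread between libraries, which may be technical. The 2 groups had 11 barcodes in common with scATAC and 244 with Multiome.

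DOCA activates the mineralocorticoid receptor, the receptor of aldosterone, and spironolactone is a steroidal antagonist of it. In the kidney the receptor is best known from the principal cells (PC) of the collecting duct, where it raises sodium uptake through the epithelial sodium channel. Mineralocorticoid excess with salt raises blood pressure and damages the proximal tubule. Its injured cells (iPT) lose features of the mature convoluted (PCT) and straight (PST) segments, and macrophages (Mac) gather in the interstitium. The question here was whether the balance of cell types inside each part of the kidney, and the place of each cell type on the chromatin map, differed between treated and untreated DOCA kidneys.

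The files analysed held cell type labels and map coordinates and no accessibility of any gene, so the labels could not be checked against Havcr1, Aqp2, Csf1r or another marker. Agreement of labels with the map was measured, which cannot replace that check. The authors named clusters of the same corrected data that the map draws, so high agreement is largely built in. A nucleus was counted when more than 50% of its 15 nearest nuclei on the UMAP, a 2-dimensional map on which nuclei of like accessibility lie close together, had the same label. Over all libraries this held for 95.7% of PCT, 89.8% of PST, 93.4% of iPT, 95.1% of PC and 94.6% of Mac nuclei. Myofibroblasts (MyoFib) had the lowest value, 81.6% of 223 nuclei, and their most frequent neighbours of another label were fibroblasts. PST nuclei most often had PCT nuclei beside them when the label differed.

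Labels were counted inside 3 compartments, so that a gain or loss in one part of the kidney could not move the shares in another. These were the proximal tubule (PCT, PST and iPT), the distal nephron with the loop of Henle (LOH), the distal convoluted tubule (DCT), PC and intercalated cells (IC), and the stroma and immune compartment with endothelial cells (Endo), fibroblasts, MyoFib and Mac. A share of nuclei cannot tell fewer cells of one type from more of another. For 8 of 11 cell types the 2 Spironolactone libraries lay entirely on one side of the 2 DOCA libraries, 5 higher and 3 lower. With all 9 libraries in the fit, 0 of 11 cell types (0%) passed the test at an adjusted p of 0.05 in limma, and 3 had an unadjusted p under 0.05.

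In the proximal tubule, both Spironolactone libraries had lower shares of iPT and higher shares of the mature segments than both DOCA libraries. iPT made up 30.9% and 43.5% of proximal tubule nuclei in DOCA, and 10.6% and 13.5% in Spironolactone. The DOCA share was 2.91-fold that of Spironolactone with the former kit and 3.24-fold with the latter. PST, the straight segment downstream of PCT, made up 24.6% in both DOCA libraries, against 36.3% and 40.0% in Spironolactone. The convoluted segment PCT, the main site of bulk reabsorption, had shares of 44.5% and 31.9% in DOCA and 53.1% and 46.5% in Spironolactone. None of the 3 labels overlapped between the groups.

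On the log2 odds scale the iPT share differed by -2.11 ± 0.96 (SE, 2 libraries a side; adjusted p = 0.116), with a 95% interval from -4.51 to 0.29. Within kits the difference was -1.91 and -2.31, while the kits within a group differed by 0.79 in DOCA and 0.39 in Spironolactone. The spread in this fit is shared with libraries outside the comparison. The Control libraries held 2.86% and 19.7% iPT, and without one or the other of them the same difference had an SE of 0.52 and an adjusted p of 0.0272. With the 4 libraries of the comparison alone the adjusted p was 0.000324, in a fit that gives all 11 shares 1 common spread. PST differed by 0.92 ± 0.36 and PCT by 0.70 ± 0.31 (adjusted p = 0.116 for both).

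**Figure D1:**
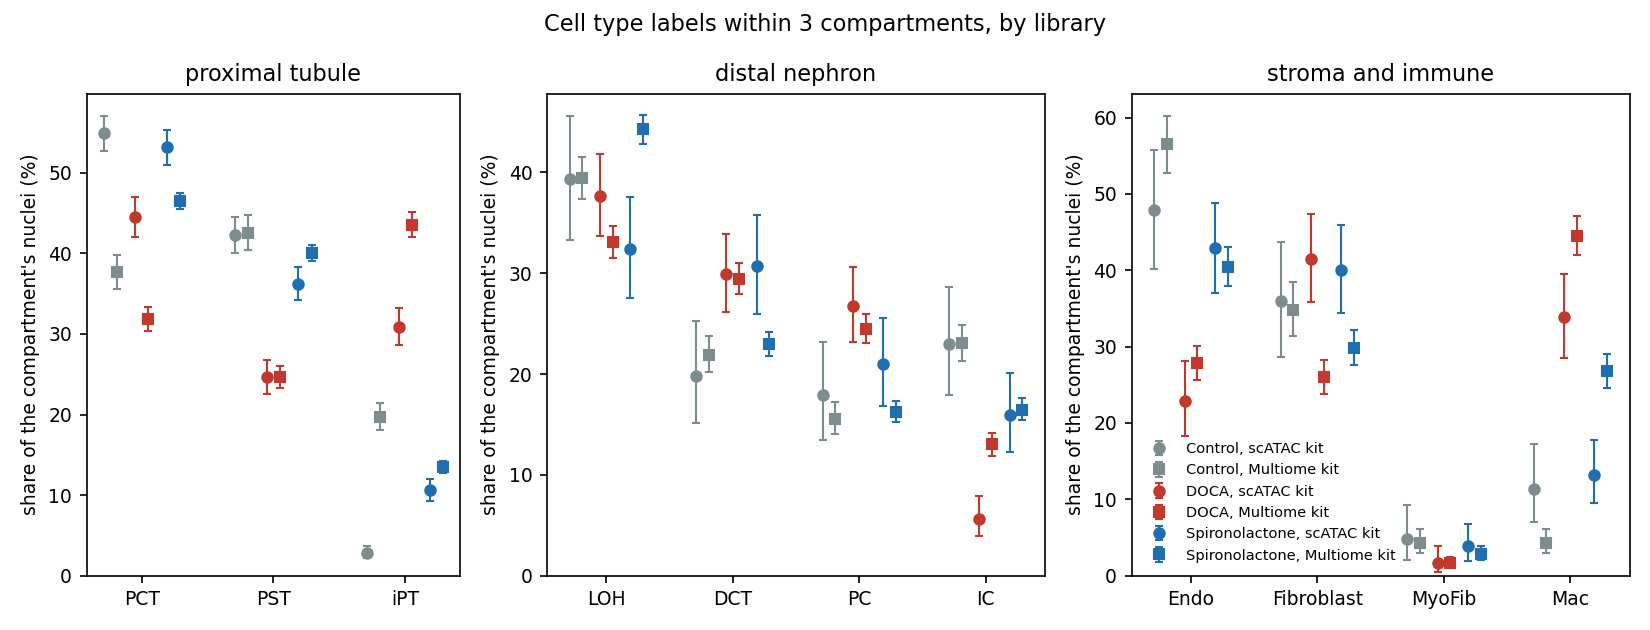
Share of each cell type label among the nuclei of its compartment (%), for the Control, DOCA and Spironolactone libraries. Circles are scATAC libraries and squares Multiome libraries, and bars are exact 95% binomial intervals that cover counting error only. Both Spironolactone libraries lie below both DOCA libraries for iPT, PC and Mac and above them for PCT, PST, IC, Endo and MyoFib.

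Ratios of pairs of labels, which no other label can move, gave the same picture inside the proximal tubule. There were 1.26 and 1.77 iPT nuclei per PST nucleus in DOCA and 0.292 and 0.336 in Spironolactone. Per PCT nucleus there were 0.694 and 1.37 iPT nuclei in DOCA and 0.199 and 0.289 in Spironolactone. The differences on the log2 scale were -2.25 ± 0.99 and -2.02 ± 0.95 (adjusted p = 0.189 for both). The balance of the mature segments, PCT per PST, overlapped between the groups and differed by -0.23 ± 0.34. Of the 15 pairs within compartments 0 (0%) passed the test in limma, 2 had an unadjusted p under 0.05, and 13 differed in the same direction in both kits.

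In the distal nephron, PC, the sodium-absorbing cells that respond to aldosterone, had shares of 26.8% and 24.5% in DOCA and 20.9% and 16.3% in Spironolactone. IC, their acid- and base-secreting neighbours in the collecting duct, had 5.63% and 13.0% in DOCA and 15.9% and 16.5% in Spironolactone. Neither label overlapped between the groups, and they differed in opposite directions. PC per IC differed by -1.38 ± 0.42 on the log2 scale, with a 95% interval from -2.42 to -0.35 and an adjusted p of 0.189. The share of PC itself differed by -0.60 ± 0.26 and that of IC by 1.03 ± 0.40 (adjusted p = 0.116 for both). Without the DOCA scATAC library the IC difference was 0.47, and without the DOCA Multiome library it was 1.58. The IC share of the DOCA scATAC library rested on 32 nuclei.

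LOH, which builds the salt gradient of the medulla, and DCT, where thiazide-sensitive sodium uptake takes place, overlapped between the groups. LOH took 37.7% and 33.1% of distal nuclei in DOCA and 32.4% and 44.3% in Spironolactone, lower in one kit and higher in the other. DCT took 29.9% and 29.5% in DOCA and 30.7% and 23.0% in Spironolactone. Their 95% intervals on the log2 odds scale, from -0.72 to 1.07 for LOH and from -1.11 to 0.68 for DCT, leave room for differences in either direction.

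In the stroma and immune compartment, both Spironolactone libraries had lower shares of macrophages and higher shares of endothelial cells than both DOCA libraries. Mac had shares of 33.9% and 44.5% in DOCA and 13.2% and 26.8% in Spironolactone. Endo, which line the capillaries and larger vessels, had 22.9% and 27.8% in DOCA and 42.9% and 40.5% in Spironolactone. Fibroblasts, which lay down matrix, overlapped, at 41.5% and 26.0% in DOCA and 40.1% and 29.8% in Spironolactone. MyoFib, contractile cells of vessel walls and scar, had 1.66% and 1.67% in DOCA and 3.83% and 2.90% in Spironolactone, on 5 and 26 nuclei in DOCA and 11 and 44 in Spironolactone.

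The log2 odds of the Mac share differed by -1.43 ± 0.77 (adjusted p = 0.158) and those of Endo by 1.07 ± 0.49 (adjusted p = 0.116). Without the Spironolactone scATAC library the Mac difference was -0.44 and that of Endo 0.56, and without the Spironolactone Multiome library they were -2.43 and 1.58. MyoFib had the lowest adjusted p of the 11 cell types, 0.109, for a difference of 0.98 ± 0.26. A majority of MyoFib neighbours surrounded 5 of 5 and 18 of 26 MyoFib nuclei in DOCA, and 7 of 11 and 36 of 44 in Spironolactone. For MyoFib per Mac the difference was 2.00 ± 0.72 and for Endo per Mac 1.76 ± 0.86 (adjusted p = 0.189 for both). These became 0.99 and 0.58 without the Spironolactone scATAC library, and 3.01 and 2.94 without the Multiome one. Without one or the other Control library, in which Mac took 11.4% and 4.34% of the compartment, these ratios had adjusted p-values of 0.0107 and 0.0272.

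The proximal tubule and the distal nephron differed less between the groups than between the kits. The proximal tubule held 64.5% and 43.8% of all nuclei in DOCA and 75.9% and 59.2% in Spironolactone, and the distal nephron 23.0% and 38.6% in DOCA and 13.2% and 30.4% in Spironolactone. In each kit the proximal share was higher and the distal share lower in Spironolactone, but the groups overlapped across kits. The stroma and immune compartment, with 12.2% and 17.0% in DOCA and 10.5% and 9.97% in Spironolactone, was the only one of 4 without overlap between the groups. Podocytes, the filter cells of the glomerulus, made up 0.364% and 0.634% in DOCA and 0.368% and 0.368% in Spironolactone. Of the 4 compartments, podocytes counted as the fourth, 0 (0%) passed the test in limma, 0 had an unadjusted p under 0.05, and the lowest adjusted p was 0.264.

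On the UMAP the 4 libraries covered the same regions. Its units have no physical meaning, and the batch correction applied by the authors before the map was drawn can take out part of a difference between libraries. Within the proximal tubule cloud, DOCA nuclei were denser at the end where iPT lies and Spironolactone nuclei at the far ends of the PST and PCT arms.

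**Figure D2:**
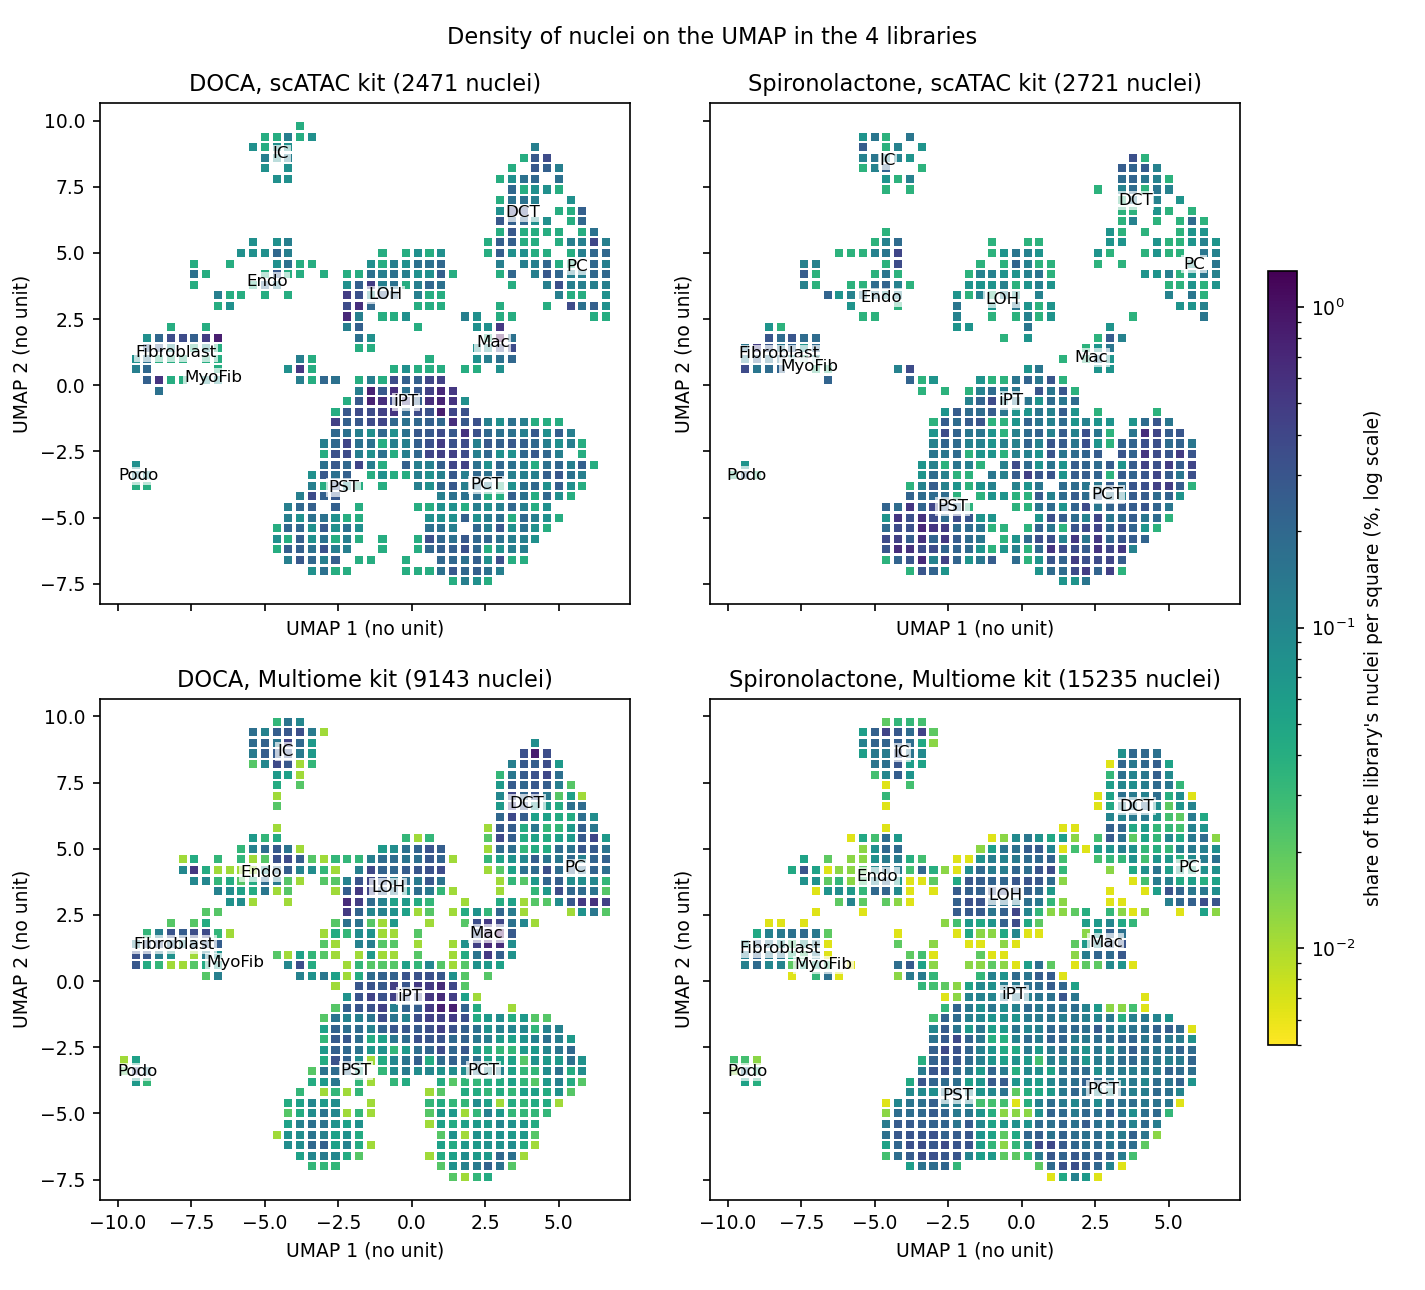
Density of nuclei on the UMAP in the 4 libraries, as the share of a library's nuclei in squares 0.4 units wide (%, logarithmic colour scale), with each label at its mean position. Dark squares gather around iPT in both DOCA panels and at the lower ends of PST and PCT in the Spironolactone panels.

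In UMAP units, PST had the largest move when each cell type was judged by the smaller of its 2 kits. From DOCA to Spironolactone its mean position moved by 0.721 and 0.965 units in the 2 kits, in directions 13.0° apart and away from iPT. The kits lay 0.646 units apart within DOCA and 0.341 within Spironolactone. PCT moved by 0.536 and 0.792 units, 19.8° apart, beside distances between kits of 0.394 and 0.130. For LOH the moves were 0.277 and 0.406 units, 13.7° apart, beside 0.144 and 0.117. In the largest LOH body alone they were 0.671 and 0.30, and between median positions 1.03 and 0.616. The iPT label itself moved by 0.168 and 0.200 units, 3.91° apart, beside distances between kits of 0.143 and 0.128. Without a body of 768 iPT nuclei toward lower UMAP 1, these moves were 0.0390 and 0.0618 units, 150.2° apart, beside 0.114 and 0.200 between kits. That body came apart only when nuclei were joined within 0.3 map units, not within 0.5. For 5 of 12 cell types, these 4 and fibroblasts, both moves were larger than both distances between kits, and iPT was among them only with its separate body counted.

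PC, the classical target of mineralocorticoids, moved by 0.250 and 0.127 units, against 0.229 and 0.339 between kits. Mac moved by 0.681 and 0.455 units, but in directions 80.1° apart and against 0.281 and 0.653 between kits. MyoFib moved by 0.620 and 0.740 units, against 0.858 and 0.494 between kits, and its direction along UMAP 1 turned round (0.10 in place of -0.48 SD of the coordinate) when nuclei outside its largest body were left out. As a share of the radius of the cell type, the mean move of the 2 kits was 0.472 in MyoFib, 0.365 in Mac and 0.330 in PST. In the largest body alone the moves were 0.164 and 0.0989 units in MyoFib, 0.306 and 0.334 in Mac and 0.722 and 0.892 in PST. Between median positions they were 0.158 and 0.120 in MyoFib and 0.299 and 0.447 in Mac. Among the other types the smaller of the 2 moves ran from 0.0210 units in podocytes to 0.255 in Endo. Of the 24 coordinates, 2 for each of 12 cell types, 0 (0%) passed the test in limma, and 1, MyoFib on UMAP 1, had an unadjusted p under 0.05. PST differed by -0.42 ± 0.19 SD along UMAP 2 and PCT by -0.27 ± 0.11 SD (adjusted p = 0.460 for both). Without the DOCA Multiome library these were -0.24 and -0.18 SD (adjusted p = 0.875 for both).

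**Figure D3:**
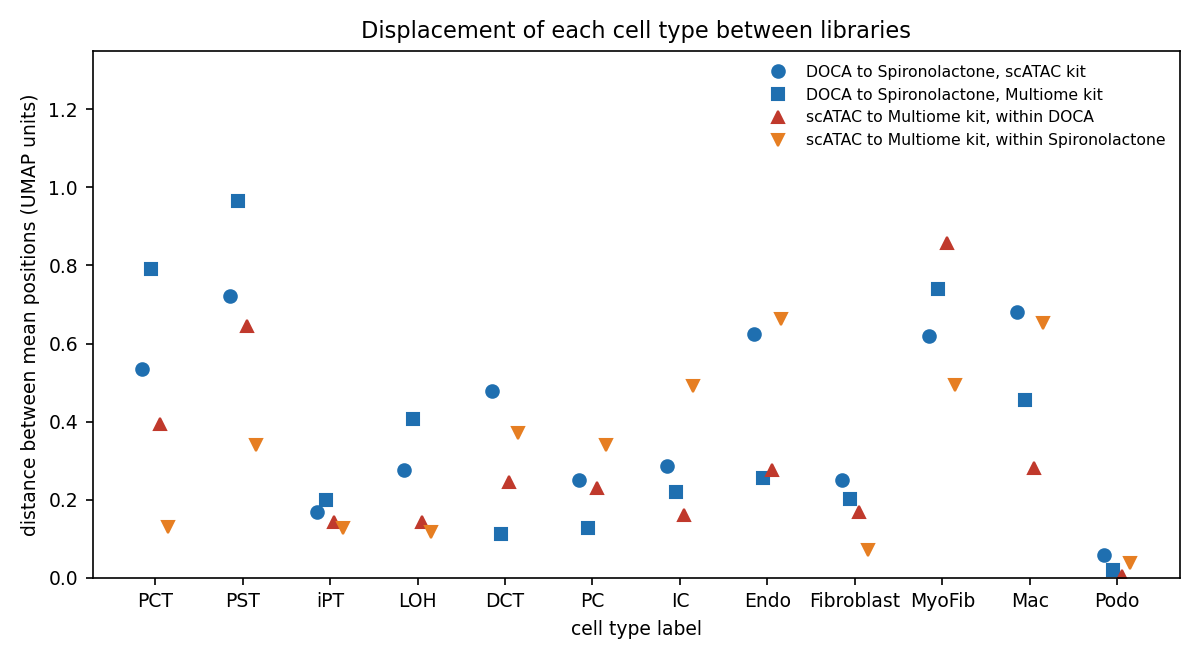
Distance between the mean UMAP positions of each cell type (UMAP units), from DOCA to Spironolactone within each kit (blue) and from the scATAC to the Multiome kit within DOCA (red) and within Spironolactone (orange). In PCT, PST, iPT, LOH and fibroblasts both blue points lie above both distances between kits, for iPT only with its separate body counted, as plotted here (0.0390 and 0.0618 units without it).

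To place the shift, each proximal tubule nucleus was projected on the line that runs from the median PST position (0) to the median iPT position (1) of the Control, Finerenone and Amiloride libraries, which were not part of the comparison. The median PST nucleus lay at 0.314 and 0.464 in DOCA and at 0.0468 and 0.178 in Spironolactone, against -0.0211 and -0.0161 in Control. Control helped set the zero of the line, so its PST medians near 0 are partly built in. The other groups that set it had PST medians of 0.287 and -0.0386 (Finerenone) and 0.00605 (Amiloride, Multiome only). Past the midpoint of the line lay 32.1% and 45.3% of PST nuclei in DOCA, 21.0% and 21.4% in Spironolactone and 9.62% and 10.6% in Control. In the plot along this line, PST nuclei of the 6 DOCA, Spironolactone and Control libraries formed a group near 0 and another near the midpoint. The libraries differed in how many nuclei each group held.

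PCT nuclei were placed likewise. Their medians were 0.625 and 0.677 in DOCA, 0.529 and 0.518 in Spironolactone and 0.342 and 0.365 in Control, and 61.1% and 70.1% of them lay past the midpoint in DOCA against 51.7% and 51.3% in Spironolactone. iPT nuclei had medians of 0.957 and 0.967 in DOCA and 0.965 and 0.977 in Spironolactone, which differ by 0.00777 and 0.00936. The PST medians differed by -0.267 and -0.285. With means in place of medians they differed by -0.128 and -0.176, and on a line from PCT to iPT by -0.105 and -0.0807. With 2 libraries a side, exchanged within kits, an exact two-sided permutation test has 4 assignments and cannot give a p below 0.5, the value found for all 3 labels.

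**Figure D4:**
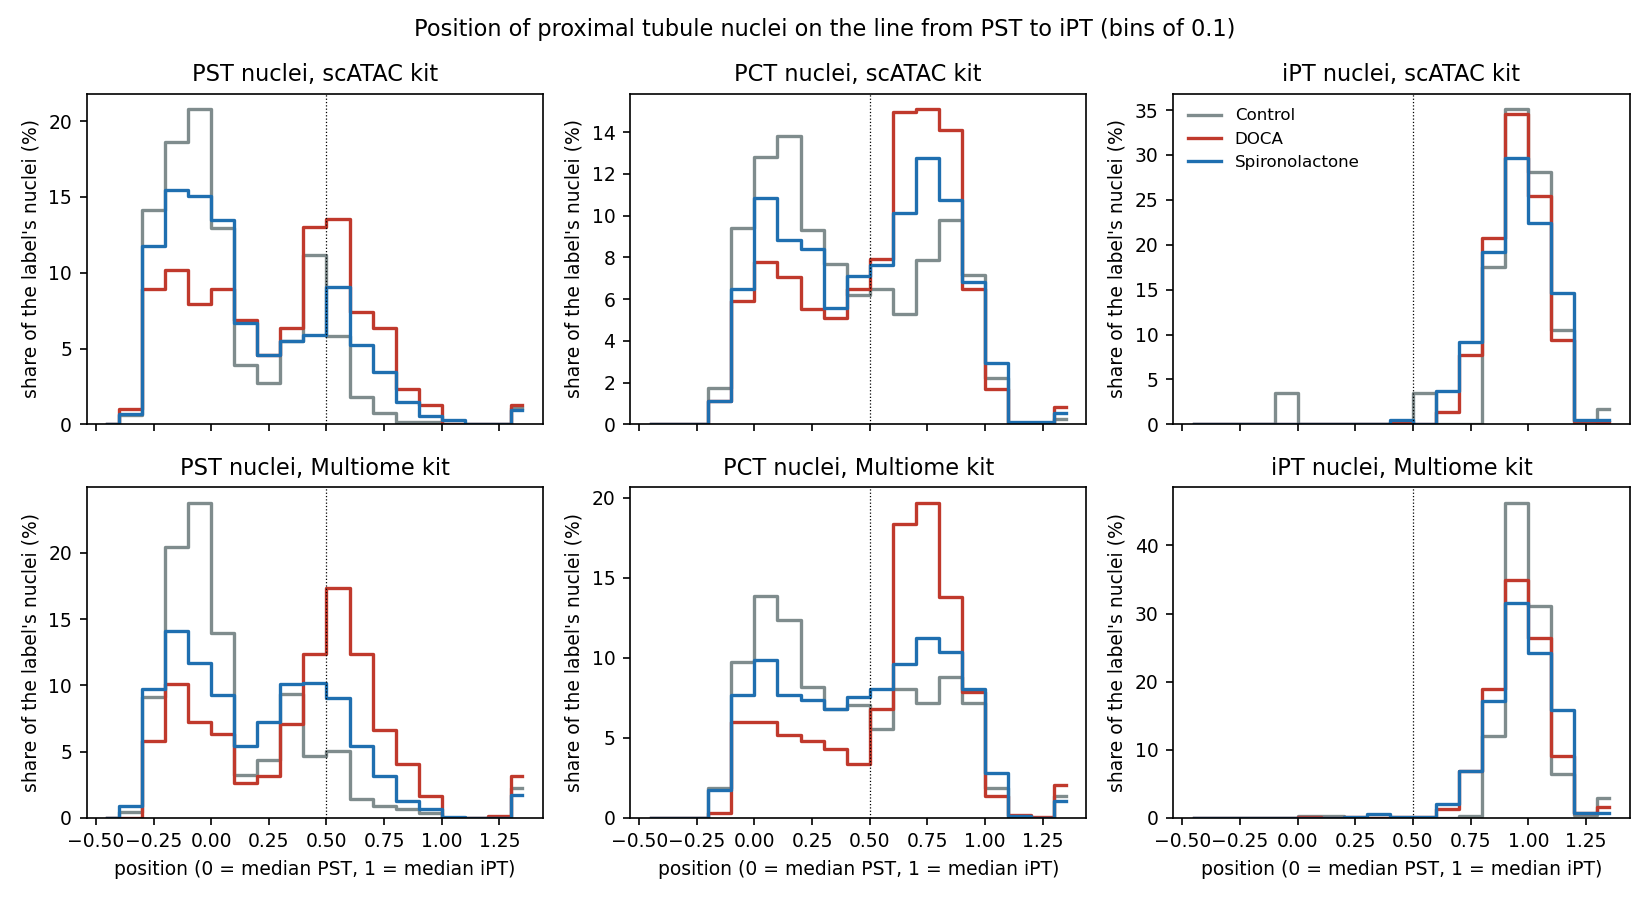
Distribution of PST, PCT and iPT nuclei along the line from the median PST (0) to the median iPT position (1), as the share of a label's nuclei in bins of 0.1 (%), with nuclei beyond either end of the axis counted in the last bin. In PST and PCT the Spironolactone curve (blue) has fewer nuclei past the midpoint (dotted line) than the DOCA curve (red) and more than Control (grey). Control is one of the groups that set the line. The iPT curves peak in the same place.

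The iPT label covered a main body next to PST and PCT and a smaller body of 768 nuclei, 14.7% of all iPT nuclei, toward lower UMAP 1. This separate body came apart only when nuclei were joined within 0.3 map units. Within 0.5, as used for the other bodies, a single body held 98.0% of iPT nuclei. The separate body made up 6.50% and 5.17% of iPT in DOCA, 9.59% and 11.3% in Spironolactone and 21.1% and 52.3% in Control. As a share of all proximal tubule nuclei it was 2.01% and 2.25% in DOCA and 1.02% and 1.52% in Spironolactone. Counted without it, iPT made up 29.5% and 42.2% of the proximal tubule in DOCA and 9.68% and 12.1% in Spironolactone, a difference of -2.18 ± 0.86 on the log2 odds scale (adjusted p = 0.111). The difference in iPT was as large without the separate body as with it.

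Smaller bodies apart from the rest of a cell type were found for LOH and Endo. When nuclei were joined within 0.3 map units in place of 0.5, the LOH body kept 259 nuclei and no separate Endo body was found. A group of 274 LOH nuclei lay amid the PST cloud. It held 1 of 214 LOH nuclei and 6 of 1167 in DOCA, and 6 of 116 and 82 of 2053 in Spironolactone, which is 0.467% and 0.514% against 5.17% and 3.99%. The difference was 2.98 ± 1.28 on the log2 odds scale (adjusted p = 0.118), and Control held 11.9% and 1.67%. A group of 69 Endo nuclei, also beside PST, held 0 of 69 and 2 of 433 Endo nuclei in DOCA and 8 of 123 and 4 of 615 in Spironolactone (adjusted p = 0.200). With 3 nuclei taken as the limit of a count of 0, which covers counting error only, 0 of 69 allows a share of up to 4.35%. Neither of these 2 bodies (0%) passed the test in limma, and 0 had an unadjusted p under 0.05. No doublet caller was run, and whether these nuclei are pairs of an LOH or Endo and a PST nucleus was not tested.

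Mixing of the 2 groups was measured inside each cell type as the share of the 15 nearest neighbours from the other library, divided by the share expected from the numbers of nuclei. A value of 1 stands for full mixing and 0 for full separation. The median over cell types was 0.936 with scATAC (10 types with at least 20 nuclei in each library) and 0.900 with Multiome (12 types). The kits mixed with medians of 0.968 within DOCA and 0.963 within Spironolactone. With 5 neighbours in place of 15 the groups mixed with medians of 0.95 and 0.898 and the kits with 0.962 and 0.939, so that the kits within Spironolactone then mixed less than the groups did with scATAC. DOCA and Control mixed with medians of 0.902 and 0.793.

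PC mixed almost fully between DOCA and Spironolactone, at 0.998 and 0.959. iPT had values of 0.978 and 0.923, PST 0.916 and 0.888 and PCT 0.952 and 0.891. Mac had 0.919 and 0.792, the latter the lowest of the Multiome kit, beside 0.853 between kits within DOCA. The lowest values of the scATAC kit were those of fibroblasts (0.787) and DCT (0.794). Fibroblasts, however, mixed at 0.730 between the kits within DOCA, and DCT at 0.927 between the groups in the Multiome kit. LOH had 0.840 and 0.891, below its values of 0.998 and 0.979 between kits. The same held for DCT (0.983 and 0.962 between kits) and PST (0.941 and 0.944). It also held for PCT (0.953 and 0.983), though with scATAC by a very small margin. Pairs of libraries share libraries, so these values are a description.

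**Figure D5:**
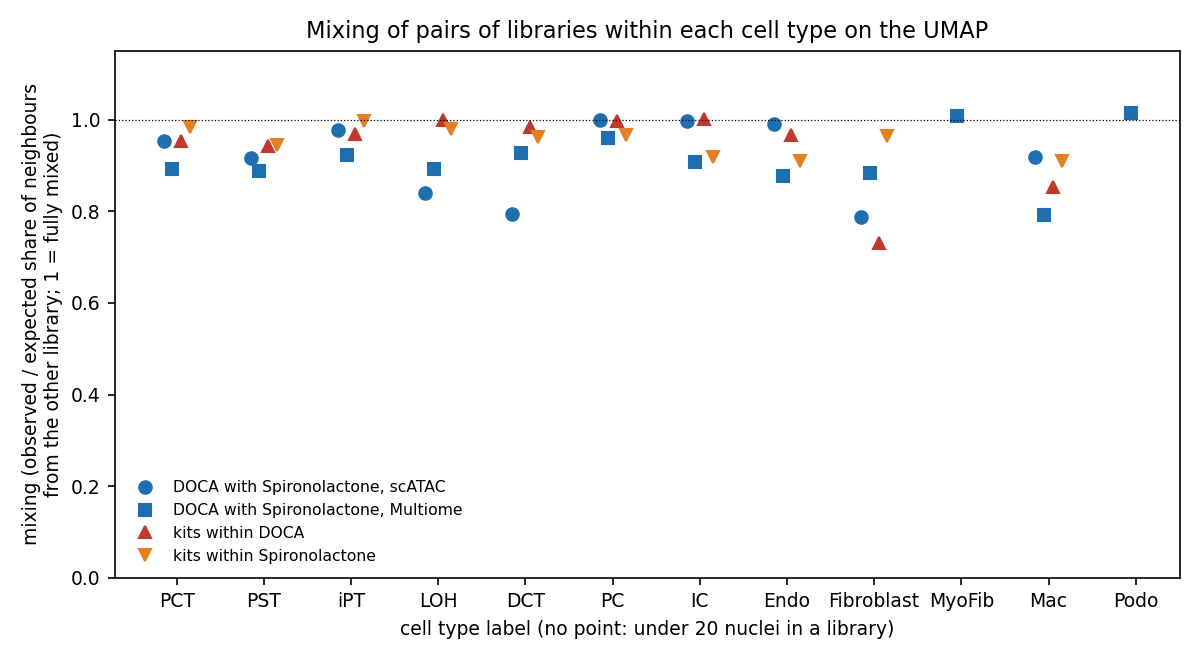
Mixing of pairs of libraries within each cell type (ratio of observed to expected neighbours from the other library, 1 for full mixing), for DOCA with Spironolactone in each kit (blue) and for the 2 kits within DOCA (red) and within Spironolactone (orange). Most points lie between 0.8 and 1. Those of DOCA with Spironolactone lie below those of the kits in LOH, DCT and PST and, barely with scATAC, in PCT.

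The spread of each cell type about its own mean and the purity of its labels were compared last. Of 12 spreads 0 (0%) passed the test in limma, 0 had an unadjusted p under 0.05, and 6 differed in the same direction in both kits. Of 12 label purities 0 (0%) passed and 1 had an unadjusted p under 0.05. This was PC, where 94.1% and 93.7% of nuclei in DOCA and 98.7% and 96.7% in Spironolactone had a majority of PC around them (difference 1.33 ± 0.46 on the log2 odds scale, adjusted p = 0.369). It was 0.80 without the Spironolactone scATAC library.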

How the data were processed

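Nuclei of 9 snATAC-Seq libraries from whole rat kidney were described by 2 deposited tables. The authors aligned the reads to rn6 with Cell Ranger ATAC 1.1.0, merged libraries in Signac 1.3.0, removed nuclei of low quality, corrected batches with Harmony, clustered, and assigned cell types by the accessibility of known marker genes. The supplementary methods speak of more merged data sets than the 9 samples listed. The deposited UMAP coordinates are a score without a physical unit that the authors computed over the merged libraries. Library code, treatment and cell type are deposited names and have no unit. Both tables held the same 53298 nuclei. No nucleus was removed and no doublet caller was applied. Peak counts were not used here, and the genome coordinates of peaks are therefore not given.

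Groups came from the treatment labels. The kit of each library was inferred from barcodes that libraries have in common, since at most 1 barcode occurred in both of any 2 libraries of different kits. Depth was 2471 to 15235 nuclei per library in the groups compared, and exact Clopper-Pearson 95% intervals (scipy 1.17.1) cover counting error only. Libraries, not nuclei, were replicates. The methods of the study name a chi-square test for fractions. Run on nuclei it would treat them as replicates, and it was not used. Counts were turned into log2 odds or log2 ratios with a pseudocount of 0.5 and fitted with limma 3.58.1 in R 4.3.3 (group and kit as terms, all 9 libraries, 1 spread estimate for all groups, Benjamini-Hochberg adjustment within each family of results, threshold 0.05). Mean UMAP coordinates were divided by the SD of the coordinate over all nuclei of the type. Separate bodies of a cell type were found with DBSCAN in scikit-learn 1.9.0 (radius 0.5 and at least 10 nuclei, bodies of at least 50 nuclei and 2% of the type). The separate body of iPT appeared at a radius of 0.3.

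Cell types, compartments, lists and tests were chosen with earlier results of these data known. All cell types were named for shares, the 5 pairs with the largest difference of one sign in both kits for ratios, and iPT, PC, Mac and the 4 other types moved most in UMAP units for position. Balances, bodies and types named beyond these were chosen after their values were seen. In data simulated for this comparison with the 11 shares, limma found 85.5% of changes of 4 SD and 23.0% of changes of 2 SD. The simulated shares were independent and had 1 common spread. Real shares of a compartment depend on each other, and their own SDs ran from 0.109 (MyoFib) to 1.27 (iPT). The rates found therefore do not carry over to the real shares. The mixing measure was tested on simulated data too. Alternatives covered the libraries in the fit, the kit term, the variance model, pseudocounts, scales, the summary of a library, neighbours and leaving out each library. Counting iPT without its separate body was added after the data were seen.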

Additional observations from a re-analysis of the deposited data

How the results depend on the processing

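With the defaults, 0 cell types, compartments, pairs, coordinates, label purities and bodies passed the threshold. With only the 4 DOCA and Spironolactone libraries, 6 of 11 cell types (PST, iPT, IC, Endo, MyoFib and Mac), 2 pairs (iPT per PST and iPT per PCT), 3 coordinates (PST and Mac on UMAP 2, MyoFib on UMAP 1) and 1 body (that of LOH) passed. The spread then rests on 1 residual degree of freedom per result and is pooled over shares of the same nuclei. With a trend in the variance and robust estimation, 3 cell types (PC, Endo and MyoFib), 1 pair (PC per IC), 1 coordinate (MyoFib on UMAP 1) and 1 label purity (PC) passed, and this fit was not run for the bodies. With the median coordinate, 1 passed (fibroblasts on UMAP 2). Leaving out each library in turn gave 0 to 1 cell types (iPT), 0 to 2 compartments (proximal tubule and distal nephron, adjusted p = 0.0452 for both in limma) and 0 to 4 pairs (iPT per PST, iPT per PCT, MyoFib per Mac and Endo per Mac). The higher counts came without Control replicate 1 or 2, where a lone Control library adds no spread.

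Directions were followed for all shares, compartments and bodies, the 5 pairs of largest difference, and places on the line to iPT. Beyond these, only PST, PCT and Mac on UMAP 2, MyoFib on UMAP 1, PC and PCT purity, and LOH and IC spread were followed. Among the results followed, directions turned in 4 that lay near 0 or rested on few nuclei. Without single libraries the LOH share ranged from -0.21 to 0.56, that of fibroblasts from -0.12 to 0.31 and the podocyte share from -0.88 to 0.092 (log2 odds). For LOH the sign turned without DOCA replicate 2 and, at -0.12, without Spironolactone replicate 2, for fibroblasts without DOCA replicate 2, and for podocytes without Spironolactone replicate 2. With a centred log-ratio the fibroblast value was -0.10. MyoFib on UMAP 1 was 0.10 with the largest body only and 0.088 with the median coordinate. Outside the results followed, iPT on UMAP 1 went from -0.096 to 0.0071 SD without its separate body. The median place of PST on the line to iPT differed by -0.276, by -0.152 with means, by -0.0928 on the line from PCT and by -0.228 on the line from Control alone. The fit to the 4 libraries keeps kit as a term, so it compares the groups in pairs within kits. Without a kit term, 0 results passed. Depth limits MyoFib, podocytes, IC and Mac most, with 5, 9, 32 and 38 nuclei in their smallest libraries.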
